A study of Mus musculus with 2 samples.

Results

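The imprinted growth genes described here are 10 mouse genes chosen by name from the 32285 genes of the deposited count table: Igf2, H19, Dlk1, Meg3, Mest, Ndn, Peg3, Grb10, Plagl1 and Igf2r. All 10 were found and all had UMIs (unique molecular identifiers, 1 per captured RNA molecule) in both libraries. Single cells of E14 mouse embryos without head and viscera had been sorted on the tdT reporter and sequenced as 1 10x Genomics library of SRSF2f/w/Myf5-Cre/tdT and 1 of SRSF2f/f/Myf5-Cre/tdT. Both groups carry Myf5-Cre, which drives recombination in the Myf5 lineage, and the tdT reporter that this Cre switches on. They differ in carrying 1 or 2 floxed copies of Srsf2, the gene of a splicing factor. The number of embryos behind each library is not given in the sources used here.

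The labels of the libraries are in doubt. Srsf2 had 153 CPM (UMIs per 1000000 UMIs of the same cells) in the library labelled f/w and 219 CPM in the library labelled f/f, a log2 ratio of 0.52 (95% interval 0.49 to 0.54), so that the library labelled with the floxed pair held more Srsf2 RNA. The deleted part of Srsf2 was not taken from the sources used here, so these 3′ counts may lie outside it. Muscle cells made up 1.08% of the kept cells in the library labelled f/w and 17.3% in the library labelled f/f. The paper reports the reverse, a much larger share of muscle cells in its f/w control than in its f/f mutant. It also reports raised shares of neural, endothelial and immune cells in the mutant. Here these shares were larger in the library labelled f/w. Neuronal cells were 11.0% in it and 4.68% in the library labelled f/f, endothelial cells 8.88% and 2.92%, and immune cells 5.98% and 1.01%. The names of the deposited summaries give the opposite assignment to the titles. Cell numbers go with the titles, as the paper retained fewer cells of its control than of its mutant and the library labelled f/w is the smaller here. The libraries are therefore called by their labels throughout, ratios are those of the library labelled f/f over the library labelled f/w, and each would change sign if the labels were exchanged. There is 1 library per label, so that no test between the labels was possible. Intervals are exact 95% intervals and cover counting error only. Of 27766 barcodes, 22868 passed the quality limits, 10345 of the library labelled f/w with a median of 9480 UMIs and 12523 of the library labelled f/f with a median of 10751. The libraries share 74 barcode sequences, 50 of them among the kept cells.

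Imprinted genes are expressed mainly from the copy inherited from 1 parent, through methylation marks set in the germ line. Many of them act on fetal growth, with paternally expressed genes often promoting and maternally expressed genes often restraining it. Igf2 and H19 share a control region and enhancers, as do Dlk1 and Meg3, and in each pair the protein-coding gene is read from the paternal copy and the noncoding RNA from the maternal copy. Most imprinted growth genes are high in fetal tissues and fall after birth. UMIs do not separate the parental copies, so all values below are sums over both.

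Some members are also host transcripts of microRNAs, short RNAs that pair with targets through their seed. Within the annotated limits and on the strand of 4 members, RefSeq (GRCm38.p6) places 9 mature microRNAs. They are shown, with the seed (bases 2 to 8) in capitals, because they are the part of Igf2, H19, Meg3 and Mest transcription that counts of 3′ ends do not measure. The 9 seeds all differ.
H19, mmu-miR-675-5p: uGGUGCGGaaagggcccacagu
H19, mmu-miR-675-3p: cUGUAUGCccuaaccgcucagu
Igf2, mmu-miR-483-5p: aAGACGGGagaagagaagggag
Igf2, mmu-miR-483-3p: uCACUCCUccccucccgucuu
Meg3, mmu-miR-1906: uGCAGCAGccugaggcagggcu
Meg3, mmu-miR-770-5p: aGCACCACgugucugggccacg
Meg3, mmu-miR-770-3p: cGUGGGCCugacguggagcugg
Mest, mmu-miR-335-5p: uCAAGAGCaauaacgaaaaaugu
Mest, mmu-miR-335-3p: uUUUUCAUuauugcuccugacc
The pair of miR-675 lies in an exon of H19 (chr7:142577078-142577133, minus strand), and those of miR-770 and miR-1906 in exons of annotated Meg3 transcripts. The microRNAs of Igf2 and Mest lie in introns.

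Over all kept cells, Meg3 was the most abundant of them by UMIs in both libraries, at rank 101 of all genes in the library labelled f/w and rank 89 in the library labelled f/f, and Ndn the least, at ranks 1425 and 1133. With each cell thinned to 2000 UMIs, Meg3 was found in 76.5% and 86.5% of the cells, Igf2 in 64.8% and 68.7%, Igf2r in 22.5% and 28.8%, and Ndn in 18.4% and 21.9%. Without thinning, these shares were 88.5% and 95.2%, 85.6% and 92.3%, 58.0% and 71.7%, and 51.1% and 61.0%. The 3′ counts give 1 UMI per captured transcript end whatever its length, but capture can differ between genes, so the comparisons that follow are made within each gene.

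Cells were put into 11 classes by UMIs of fixed marker genes, none of which is a member. The classes are SKM-like (skeletal muscle), Mesen-like (mesenchymal), Chon-like (cartilage), Osteo-like (bone), Neu-like (neuronal), Sch-like (Schwann), Endo-like (endothelial), Peri-like (pericyte), Immu-like (immune), Epi-like (epidermal) and Ery-like (erythroid). The 10 leading genes of each class held 1 to 4 of its own markers and none of another class. Cells were assigned by these same markers, so this count is no independent check of the classes. The leading genes of the Sch-like cells also include the melanocyte genes Dct and Pmel. Every member varied between classes by more than its counting error. From the highest to the lowest class, the level differed at least 17.9-fold in each member and library, with the Ery-like cells lowest each time.

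Igf2, a secreted growth factor, and H19, the noncoding RNA 72622 bases from it on chromosome 7, had the same highest classes. Igf2 (ENSMUSG00000048583, chr7:142650766-142666816, minus strand, GRCm38) reached 1183 CPM in the Chon-like cells of the library labelled f/w and 1196 CPM in those of the library labelled f/f. The Endo-like cells followed with 985 and 1006 CPM, and the Mesen-like cells with 807 and 829 CPM. Neurons were low, at 186 and 217 CPM. The order from the Chon-like to the Mesen-like cells was the same in both libraries, with intervals that did not overlap. H19 (ENSMUSG00000000031, chr7:142575529-142578143, minus strand) had 1823 and 2130 CPM in the Chon-like cells and 1044 and 1313 CPM in the Endo-like cells. The Osteo-like cells came next, with 897 and 948 CPM. Skeletal muscle cells were in the middle of the order for both genes, with 478 and 472 CPM of Igf2 and 571 and 646 CPM of H19. Gm49394 overlaps Igf2 on the same strand and is not among the genes counted, and Igf2os overlaps it on the other strand.

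Within the Endo-like cells, both genes were higher in cells with lymphatic genes. This split was chosen after the data were seen. Endo-like cells with at least 2 UMIs of Lyve1, Prox1 and Ccl21a had 1195 CPM of Igf2 in the library labelled f/w and 1256 CPM in the library labelled f/f, against 613 and 768 CPM in Endo-like cells with none. H19 was at 1243 and 1567 CPM against 680 and 1092 CPM. Mest went the other way, with 825 and 902 CPM against 891 and 1150 CPM.

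Igf2r and Grb10, both maternally expressed in most tissues, act against insulin-like growth factor signalling. Igf2r (ENSMUSG00000023830, chr17:12682406-12769664, minus strand) encodes the receptor that carries Igf2 to the lysosome. Its highest level was in the Peri-like cells, 274 CPM in the library labelled f/w and 308 CPM in the library labelled f/f. The Chon-like cells followed with 246 and 281 CPM. Their intervals overlapped those of the Peri-like cells in both libraries, and the difference was not tested. Endo-like cells, which were second for Igf2, had 59.9 and 75.4 CPM of Igf2r. Grb10 (ENSMUSG00000020176, chr11:11930508-12038683, minus strand), an adaptor that dampens insulin and Igf1 receptors, was the most even of the members across classes other than Immu-like and Ery-like, from 148 CPM in the Neu-like to 408 CPM in the Chon-like cells of the library labelled f/w and from 165 to 452 CPM in the library labelled f/f.

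Dlk1, a membrane protein related to Notch ligands, and Meg3, the noncoding RNA 77664 bases from it on chromosome 12, were highest in the mesenchyme. Dlk1 (ENSMUSG00000040856, chr12:109452823-109463336, plus strand) had 1415 and 1606 CPM in the Mesen-like cells, 1140 and 1090 CPM in the Chon-like cells, and 450 and 462 CPM in muscle. Endo-like cells had 41.5 and 83.3 CPM, below the 57.3 and 128 CPM of the Immu-like cells and above the 20.2 and 34.5 CPM of the Ery-like cells. The part of free RNA in these levels was not tested. Meg3 (ENSMUSG00000021268, chr12:109541001-109571726, plus strand) had 2768 and 3493 CPM in the Mesen-like cells. Unlike Dlk1 it was also high in neurons, with 2459 and 2570 CPM of Meg3 against 237 and 316 CPM of Dlk1. Meg3 in the Endo-like cells, at 172 and 282 CPM, was likewise below its 198 and 342 CPM in the Immu-like cells.

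Mest, Ndn, Peg3 and Plagl1 are paternally expressed. Mest (ENSMUSG00000051855, chr6:30723547-30748465, plus strand), named for its expression in mesoderm, overlapped at its end by Copg2 on the other strand and encoding a protein of the hydrolase fold, was highest in the Endo-like cells, with 875 and 1027 CPM. Its lowest class after the Ery-like cells was the Immu-like cells in the library labelled f/w (39.4 CPM). In the library labelled f/f it was the Epi-like cells (71.4 CPM), with an interval that overlapped that of the Immu-like cells (87.0 CPM). Ndn (ENSMUSG00000033585, chr7:62346569-62350262, plus strand) encodes necdin, a protein of postmitotic neurons, and led in the Neu-like cells with 316 and 296 CPM, followed by the Mesen-like cells with 140 and 218 CPM. The zinc finger genes Peg3 (ENSMUSG00000002265, chr7:6703892-6730431, minus strand) and Plagl1 (ENSMUSG00000019817, chr10:13060504-13131694, plus strand) shared their first 3 classes, Chon-like, Mesen-like and SKM-like. Peg3 had 1195 and 1403 CPM in the Chon-like cells, 936 and 1245 CPM in the Mesen-like cells and 757 and 926 CPM in the SKM-like cells, and Plagl1 597 and 726 CPM, 407 and 626 CPM, and 309 and 370 CPM. Intervals of neighbouring classes did not overlap in these orders.

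**Figure D1:**
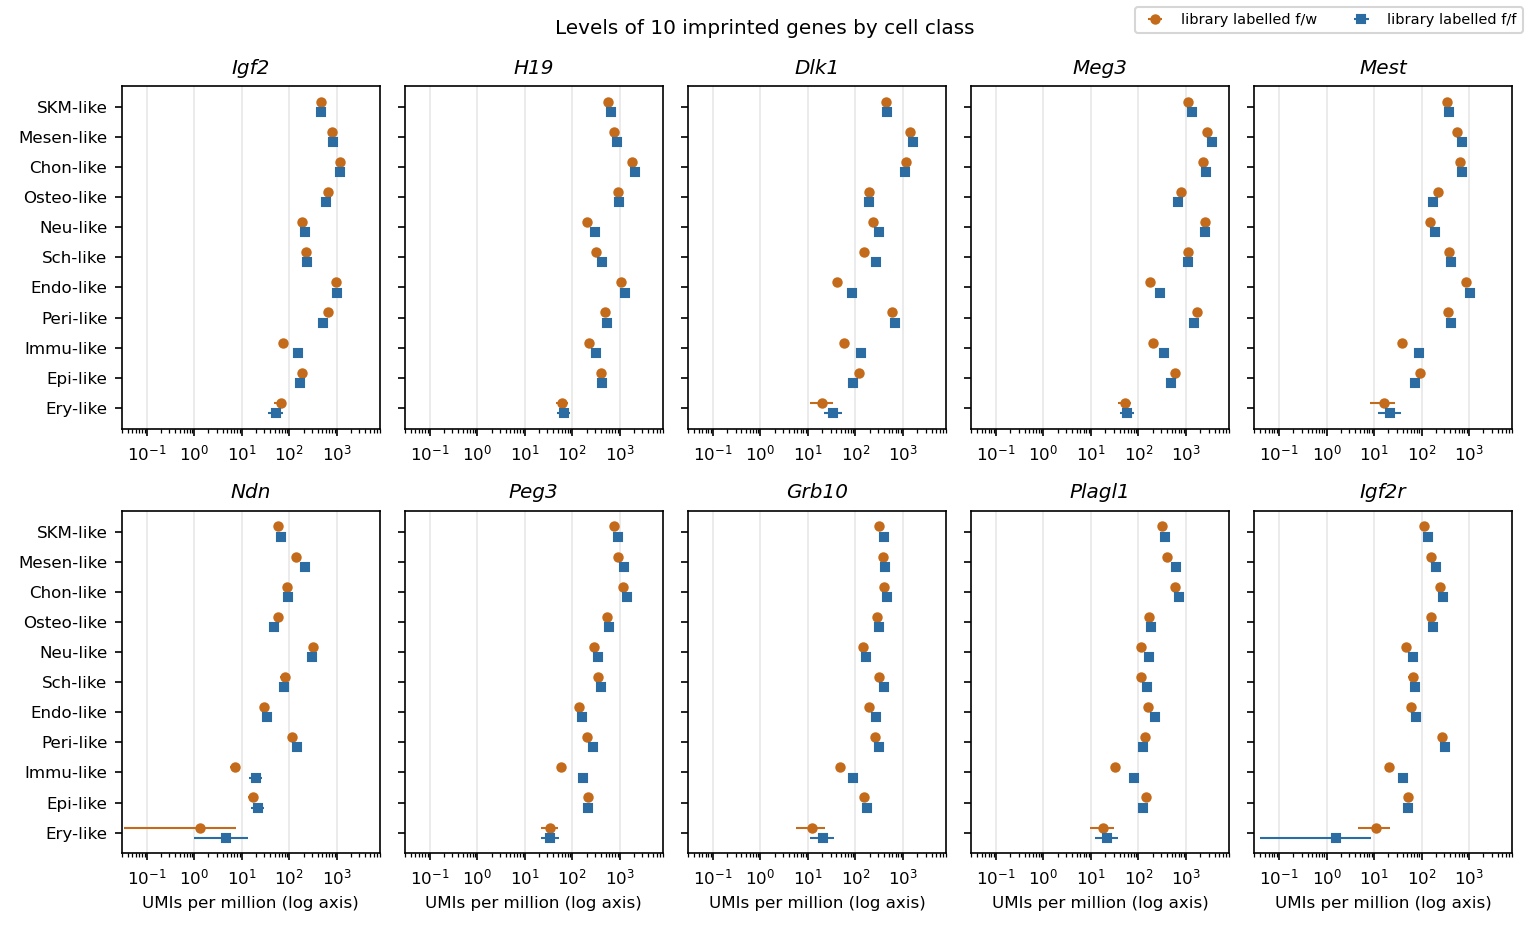
Level of each gene in CPM (log axis) in 11 cell classes, for the library labelled f/w (orange circles) and the library labelled f/f (blue squares), with exact 95% Poisson intervals. Igf2 and H19 peak in the Chon-like and Endo-like cells, Dlk1 and Meg3 in the Mesen-like cells with Dlk1 at 41.5 and 83.3 CPM in the Endo-like cells, and Ndn in the Neu-like cells.

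Low levels in blood cells set a limit to these orders. Levels in the Ery-like cells were 1.28% to 8.57% of those over all cells in the library labelled f/w and 0.847% to 6.72% in the library labelled f/f. In the Immu-like cells the range was 6.90% to 23.0% and 14.0% to 28.8%, with H19 highest in both libraries, so that the members did not stand in the same ratio to their levels over all cells. Which part of the level in the Immu-like cells is free RNA was not tested.

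Over the 20 sums of classes and libraries without the Ery-like cells, the profiles of log2(CPM + 10) of Igf2 and H19 had a Pearson r of 0.91, those of Dlk1 and Meg3 0.90 and those of Peg3 and Plagl1, which lie on different chromosomes, 0.89. Pairs of different chromosomes came close behind, with 0.88 for Meg3 and Ndn and 0.87 for Igf2 and Mest. H19 and Ndn had the lowest r, 0.03, and H19 and Meg3 had 0.14. The Ery-like cells were left out after the data were seen. These are descriptions over points that share 2 libraries, and the Ery-like cells raise all 45 values, to a range of 0.42 to 0.94.

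The genes most like a member, among 12279 genes with at least 500 UMIs and over 22 sums, included imprinted neighbours for several members. For Dlk1 the first was Mirg (r = 0.98), a noncoding RNA of the same locus (chr12:109729764-109749460), and for Meg3 it was Rian (r = 0.98; chr12:109603940-109661716), another of that locus. H19 had Igf2 first (r = 0.93), and Igf2 had H19 second behind Fn1, the gene of fibronectin, both with r = 0.93. Igf2r had Airn second (r = 0.92). Airn overlaps it on the other strand (chr17:12741311-12860136). The sources used here do not say how strand entered the counting. Whether reads of 1 gene of such a pair entered the counts of the other was not tested. Peg3 was nearest to Itm2a and to the imprinted cell cycle inhibitor Cdkn1c (r = 0.95 for both), then to Plagl1 (r = 0.94), and Plagl1 in turn to Itm2a (r = 0.95) and Peg3. Ndn was nearest to Tro (r = 0.97), Grb10 to Nedd4 (r = 0.96), which encodes a ubiquitin ligase, Mest to Id1 (r = 0.94) and Igf2r first to Poglut2 (r = 0.93). With a pseudocount of 1 in place of 10, Mirg was no longer among the first 3 of Dlk1 nor Airn among those of Igf2r, and H19 had Smtn first and Igf2 second. Rian stayed first for Meg3, and Itm2a, Cdkn1c and Plagl1 stayed the first 3 of Peg3.

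**Figure D2:**
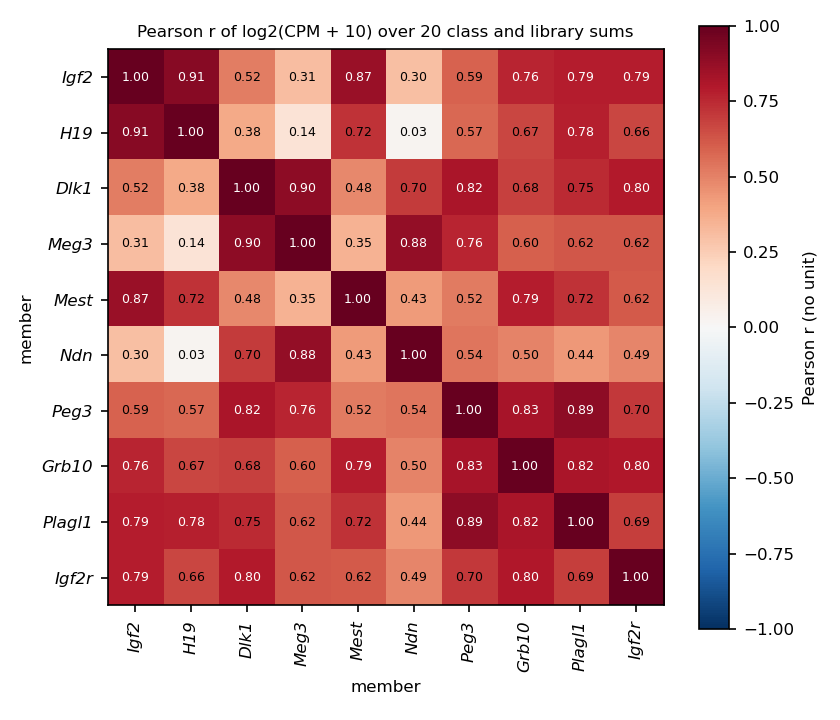
Pearson r between the class profiles of each pair of members, over 20 sums of class and library without the Ery-like cells, from blue (-1) to red (1). The pairs Igf2 with H19 (0.91), Dlk1 with Meg3 (0.90) and Peg3 with Plagl1 (0.89) have the highest values, Meg3 with Ndn (0.88) and Igf2 with Mest (0.87) follow, and H19 with Ndn (0.03) is the palest cell.

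Over single cells, the leading pair depended on the class. In the Endo-like cells the highest r of 45 pairs was that of Igf2 and H19, 0.67 in the library labelled f/w (919 cells) and 0.76 in the library labelled f/f (366 cells), where the medians of all pairs were 0.07 in each. Igf2 and H19 also led in the Mesen-like cells, with 0.53 and 0.61, and Dlk1 and Meg3 in the Chon-like cells, with 0.40 and 0.49. In the SKM-like cells the leading pairs were Peg3 with Grb10 (0.45, 112 cells) and Dlk1 with Plagl1 (0.33, 2162 cells), and Dlk1 and Meg3 had 0.17 and 0.04. Peg3 and Plagl1, alike over the classes, led in none of these 4 classes. They had 0.15 and 0.24 in the Mesen-like cells, under the medians of all pairs there (0.23 and 0.31). Elsewhere they were above the medians, with 0.33 and 0.29 in the SKM-like cells (medians 0.17 and 0.12). In the Chon-like cells they had 0.31 and 0.38 (medians 0.16 and 0.19), and in the Endo-like cells 0.18 and 0.30. Cells of a class share a library, and cells differ in depth and state, so these values describe the cells and are no test.

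Members moved in opposite directions between muscle states. SKM-like cells with Pax7 and without Myog stand for progenitors, and those with at least 2 UMIs of Myog, a factor of differentiation, and without Pax7 for differentiating cells. Plagl1 fell from 479 CPM in the 744 progenitors of the library labelled f/f to 223 CPM in its 803 differentiating cells, a log2 ratio of -1.10 (-1.17 to -1.03). In the library labelled f/w, with 28 and 53 cells, Plagl1 had 467 and 151 CPM and the ratio was -1.63 (-1.96 to -1.30). Dlk1 went from 566 to 342 CPM (-0.73, interval -0.79 to -0.67) and, in the library labelled f/w, from 555 to 307 CPM (-0.85, interval -1.11 to -0.60). Meg3 rose from 1023 to 1700 CPM (0.73, interval 0.70 to 0.77) and from 829 to 1264 CPM (0.61, interval 0.44 to 0.78). The neighbours Dlk1 and Meg3 therefore changed in opposite directions between these states in both libraries.

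Peg3 and H19 were lower in the differentiating cells of both libraries by less than 1.5-fold, with ratios of -0.33 and -0.38 for Peg3 and -0.29 and -0.34 for H19 (the library labelled f/f first). Mest had -0.52 (-0.58 to -0.45) in the library labelled f/f and -0.18 (-0.48 to 0.13) in the library labelled f/w. Igf2 was level, at -0.02 (-0.08 to 0.03) and -0.03 (-0.27 to 0.21). The median ratio of genes with at least 200 UMIs was -0.17 in the library labelled f/f and -0.007 in the library labelled f/w. These medians are over 7461 and 864 genes, so they cover unlike sets of genes. In the library labelled f/f, 2 of 10 members were at least 1.5-fold lower and 1 at least 1.5-fold higher in the differentiating cells, where 22.9% of the 7461 genes with at least 200 UMIs were lower and 10.6% higher, so that the number of members past this limit is near that of any genes.

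Cycling muscle cells (at least 3 UMIs of Mki67, Top2a and Cenpf) had the opposite tendency for these 3 genes. Against the other SKM-like cells, Plagl1 had a log2 ratio of 0.45 in the library labelled f/f and 0.78 in the library labelled f/w, Dlk1 of 0.38 and 0.40, and Meg3 of -0.34 and -0.70. H19 differed in sign between the libraries, with 0.14 (0.10 to 0.18) and -0.18 (-0.36 to -0.0044). The median ratio of genes with at least 200 UMIs was 0.12 over 8402 genes in the library labelled f/f. In the library labelled f/w it was 0.08 over a smaller set of 1232 genes. H19 in the library labelled f/f was thus near the median of that library. In the Mesen-like and Chon-like cells, Plagl1 was instead lower in cycling cells, with ratios of -0.32 and -0.30 in the former and -0.26 in both libraries in the latter.

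**Figure D3:**
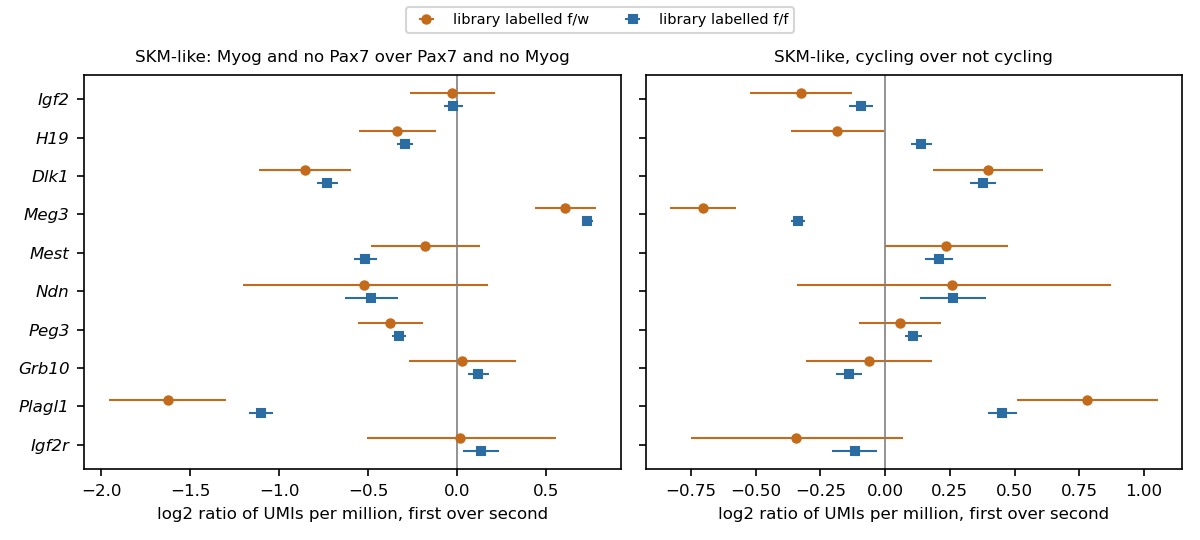
Log2 ratio of CPM within the SKM-like cells, differentiating (Myog) over progenitor (Pax7) cells on the left and cycling over other cells on the right, by library, with exact 95% intervals. On the left, Plagl1 is lowest at -1.10 and -1.63 and Meg3 highest at 0.73 and 0.61, while Igf2 lies at -0.02 and -0.03.

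Dlk1 was also the member that differed most between subsets of the mesenchyme. The 4 subsets were set by at least 2 UMIs of their markers. Dlk1 had 2480 CPM in the Fascia-type cells (Clec3b, Dpt, Pi16) and 688 CPM in the Foxd1 cells of the library labelled f/w, and 2143 and 612 CPM in those of the library labelled f/f. Tendon-type cells (Tnmd, Scx, Thbs4) had 1171 and 1338 CPM, and Osr1 cells (Osr1, Meox2), whose markers are genes of muscle connective tissue, 1739 and 1622 CPM. Meg3 followed in part, with its lowest level in the Foxd1 cells (2071 and 2559 CPM). Igf2 hardly varied, from 770 to 908 CPM in the library labelled f/w and from 866 to 930 CPM in the library labelled f/f. Ndn was highest in the Osr1 cells, 192 and 307 CPM, and lowest in the Foxd1 cells, 95.1 and 126 CPM.

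**Figure D4:**
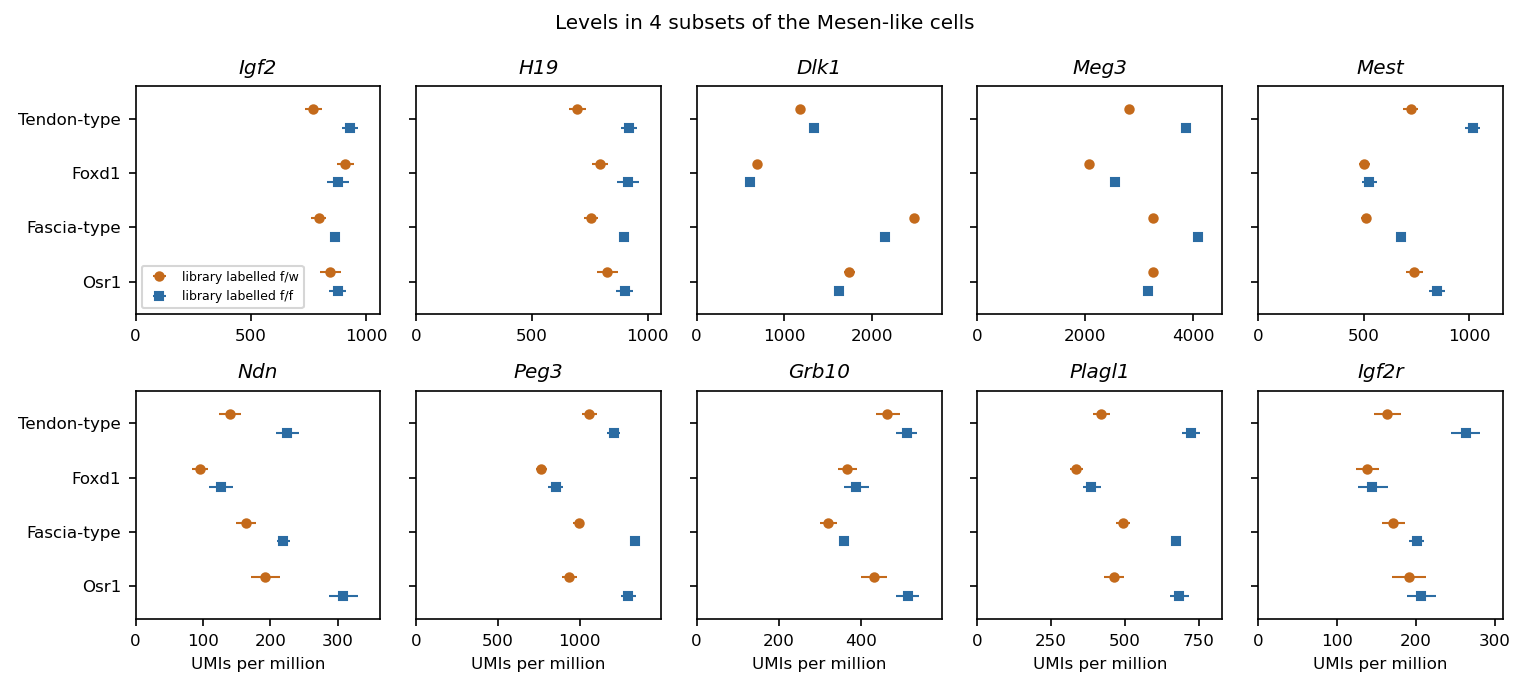
Level of each gene in CPM (axes from 0) in 4 subsets of the Mesen-like cells, with exact 95% Poisson intervals, in the library labelled f/w (orange circles) and the library labelled f/f (blue squares). Dlk1 spans 612 to 2480 CPM over the subsets and Igf2 770 to 930 CPM.

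The comparison of the labels asks whether loss of Srsf2 in the Myf5 lineage goes with other levels of these genes. Over all kept cells, 9 of 10 members were higher in the library labelled f/f, where 47.9% of 14478 genes were higher. The members had a median log2 ratio of 0.35, and the median of these genes was -0.02. Of the members, 2 were at least 1.5-fold higher and 0 at least 1.5-fold lower, where 5.66% of the genes were higher and 13.2% lower by as much. Peg3 had 672 CPM (667 to 676) in the library labelled f/w and 1013 CPM (1008 to 1018) in the library labelled f/f, a ratio of 0.59 (0.58 to 0.60). Plagl1 had 326 CPM (323 to 330) and 492 CPM (488 to 495), also a ratio of 0.59 (0.57 to 0.61). Both exceed the limit of 1.5-fold narrowly, and with each cell at equal weight neither did.

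Igf2 had 770 CPM (765 to 775) and 769 CPM (765 to 773), a ratio of -0.002 (-0.01 to 0.01), and so was the member whose libraries did not differ beyond counting error. H19 had 967 and 1079 CPM (0.16), Mest 515 and 575 CPM (0.16), Ndn 105 and 129 CPM (0.29), Dlk1 723 and 917 CPM (0.34) and Meg3 1772 and 2260 CPM (0.35). The 2 genes that act against growth factor signalling were higher too, Grb10 with 293 and 391 CPM (0.41) and Igf2r with 138 and 185 CPM (0.43).

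The mix of cells differed between the libraries along with these ratios. Immu-like cells, low in every member, were 5.98% of the kept cells in the library labelled f/w and 1.01% in the library labelled f/f, Endo-like cells 8.88% and 2.92%, and Neu-like cells 11.0% and 4.68%. With the same share of each class in both libraries, the ratio of Peg3 was 0.31 and that of Plagl1 0.41, Dlk1 fell to 0.10, Igf2 was at 0.02, and 0 of 10 members were past 1.5-fold. In the classes other than the SKM-like cells, Peg3 stood at 0.67, Plagl1 at 0.72, Dlk1 at 0.56 and Igf2 at 0.17. These weightings were chosen after the data were seen, and the share of all genes past the limit was not computed with them.

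In the SKM-like cells, 112 in the library labelled f/w and 2162 in the library labelled f/f, 0 of 10 members were past 1.5-fold. Of 8522 genes there, 9.52% were at least 1.5-fold higher and 2.57% at least 1.5-fold lower. In counts simulated with Poisson error only, 3.95% of genes without a change passed 1.5-fold in these cells, against 0.028% over all cells. The shares in the SKM-like cells thus hold more counting error than those over all cells. The highest ratio of a member was that of Grb10, 0.34 (0.22 to 0.47), followed by Peg3 with 0.29 (0.21 to 0.37) and Igf2r with 0.28 (0.08 to 0.49). Igf2 (-0.02), Dlk1 (0.04) and Mest (0.11) had intervals that include 0, as had Ndn (0.26, interval -0.03 to 0.55). The ratio of Plagl1, 0.26 over the class, differed between the muscle states. It was 0.56 (0.30 to 0.83) in the differentiating cells, 53 of them in the library labelled f/w, and 0.04 (-0.16 to 0.24) in the progenitors.

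Mesen-like cells had 2 of 10 members at least 1.5-fold higher in the library labelled f/f, where 2.89% of 10906 genes were. Ndn had 140 and 218 CPM, a ratio of 0.64 (0.58 to 0.70), and Plagl1 407 and 626 CPM, a ratio of 0.62 (0.59 to 0.65). Relative to the median ratio of all genes in these cells (0.06), neither passed the limit. Among the subsets, Plagl1 had its highest ratio in the Tendon-type cells (0.79, interval 0.67 to 0.90) and Ndn had 0.68 in both the Tendon-type and the Osr1 cells. The paper reports Ndn as decreased in its mutant within a mesenchymal subcluster whose markers include Thbs4 and Tnmd. That direction is opposite to the ratio of Ndn under these labels. The subcluster of the paper was not rebuilt here. Dlk1 was lower in the library labelled f/f within the Fascia-type (-0.21), Foxd1 (-0.17) and Osr1 (-0.10) cells and higher within the Tendon-type cells (0.19, interval 0.12 to 0.26) and over all Mesen-like cells (0.18). Fascia-type cells, where Dlk1 is highest, numbered 248 in the library labelled f/w and 739 in the library labelled f/f.

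Chon-like cells, of which there were about as many in each library (2456 and 2401), had 0 of 10 members past 1.5-fold. Of 10293 genes there, 1.81% were higher and 1.95% lower. The members ranged from -0.07 for Dlk1 (-0.09 to -0.04) to 0.28 for Plagl1 (0.25 to 0.31). In the Neu-like cells 0 of 10 were past the limit (1.35% of 8215 genes were higher and 1.8% lower). H19 (0.55) and Plagl1 (0.55) were nearest, and Ndn, which is highest in these cells, had -0.10 (-0.18 to -0.01). Some other settings put 1 or 2 of these genes past the limit in the Neu-like cells.

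Endo-like cells had 2 of 10 members at least 1.5-fold higher in the library labelled f/f, Dlk1 with a ratio of 1.01 (0.83 to 1.17) and Meg3 with 0.72 (0.63 to 0.81), where 2.08% of 7777 genes were higher. Their levels in the Endo-like cells lie under those in the Immu-like cells in both libraries. Peg3 in the library labelled f/f had 158 against 164 CPM in these classes, with intervals that overlapped. The Immu-like cells had ratios of 1.17 for Dlk1 and 0.79 for Meg3. The library labelled f/f also held more Mesen-like cells, 30.1% against 22.0%, where both genes are highest. The part of free RNA in this difference was not tested. In cells with lymphatic genes the ratios of Dlk1 and Meg3 were 1.03 and 0.80, and in those without them 0.92 and 0.60. H19 was also past 1.5-fold in the cells without lymphatic genes, with 0.68 (0.60 to 0.77), against 0.33 in those with them. The share of all genes past the limit was not computed in these subsets.

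**Figure D5:**
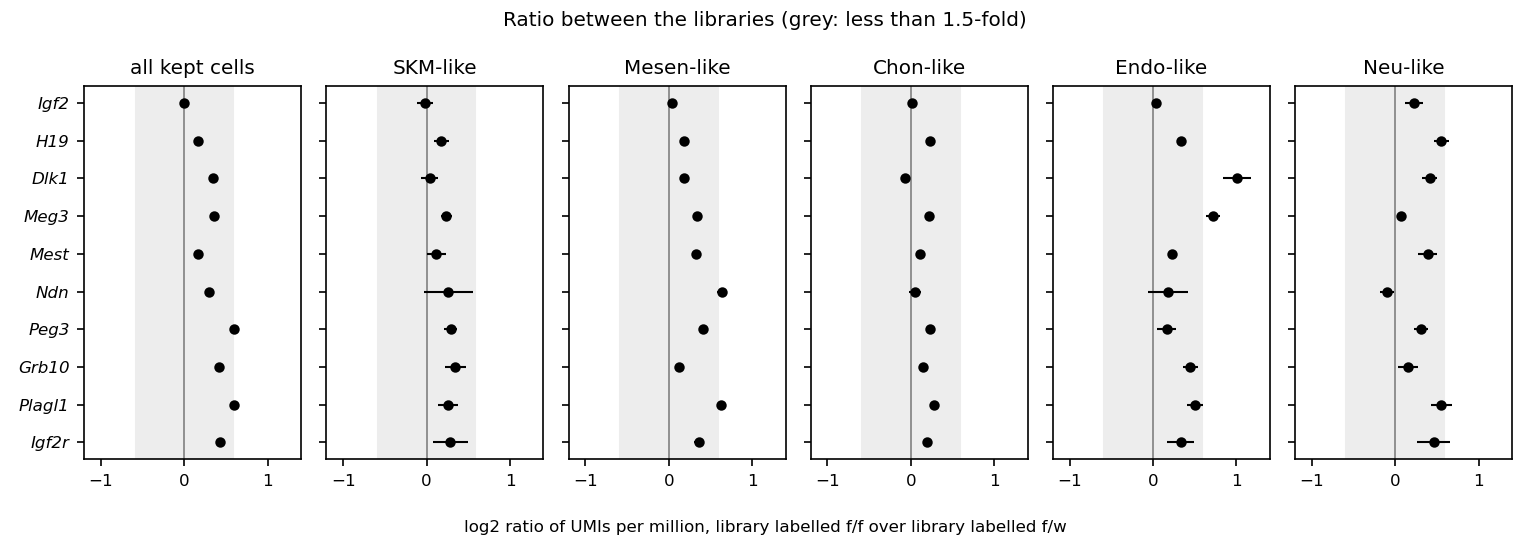
Log2 ratio of CPM of each member, library labelled f/f over library labelled f/w, over all kept cells and in 5 classes, with exact 95% intervals that cover counting error only; grey marks less than 1.5-fold. Points outside the grey are Peg3 and Plagl1 over all cells (0.59 each), Ndn and Plagl1 in the Mesen-like cells, and Dlk1 and Meg3 in the Endo-like cells.

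Peg3 and Plagl1 were alike in their profile over the classes and in their ratio over all cells, so their promoter windows are shown, 250 bases before to 50 after the annotated start (RefSeq, GRCm38.p6), in the direction of transcription. Capitals mark the motifs found.
Peg3, chr7:6730370-6730669, minus strand: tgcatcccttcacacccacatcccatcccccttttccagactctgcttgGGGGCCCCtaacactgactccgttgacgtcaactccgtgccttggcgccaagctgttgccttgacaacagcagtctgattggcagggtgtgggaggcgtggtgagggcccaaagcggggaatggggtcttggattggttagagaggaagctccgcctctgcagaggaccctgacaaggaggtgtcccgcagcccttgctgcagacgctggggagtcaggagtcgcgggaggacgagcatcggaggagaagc
Plagl1, chr10:13090582-13090881, plus strand: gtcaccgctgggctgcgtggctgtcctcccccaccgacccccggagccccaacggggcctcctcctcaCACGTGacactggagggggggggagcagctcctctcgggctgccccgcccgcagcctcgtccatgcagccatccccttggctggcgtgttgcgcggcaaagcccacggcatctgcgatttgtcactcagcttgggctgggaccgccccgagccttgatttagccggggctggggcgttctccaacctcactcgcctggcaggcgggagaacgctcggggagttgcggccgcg
Both strands of 16 windows of 9 members (H19 has no window in the table) were searched for GGGGCCCC, the core of the sequence that the Plagl1 protein binds, for GCCATNTT, a core of the Yy1 motif, for the E-box CACGTG and for TATAAA. GGGGCCCC was found in 1 window, that of Peg3, and is in 1.08% of all 32851 windows of this length. CACGTG was found in those of Plagl1 and Igf2r (7.15% of all windows), TATAAA in 1 window of Meg3 (13.6%) and GCCATNTT in 0 (6.05% of all windows). The windows of Peg3 and Plagl1 hold 13 and 26 CpG sites, where the median window holds 7. A match is a description of the letters and not of binding.

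Other imprinted genes also differed between the libraries. Of a list of 40, 36 had at least 200 UMIs over all kept cells, and 8 of these were at least 1.5-fold higher and 3 at least 1.5-fold lower in the library labelled f/f, with a median log2 ratio of 0.19. Of all genes, 5.66% were higher and 13.2% lower. Cdkn1c had 2430 CPM in the library labelled f/w and 4643 CPM in the library labelled f/f (0.93). Within classes its ratio was smaller, 0.22 in the SKM-like cells (7799 and 9064 CPM), which are 1.08% and 17.3% of the kept cells, and 0.23 in the Mesen-like cells (3064 and 3586 CPM). Peg12 had 5.91 and 11.7 CPM (0.98), and Klf14 2.25 and 4.14 CPM (0.88). The lowest ratios were those of Nap1l5 (-1.24), Snrpn (-1.08), whose product is a splicing protein of neurons, and Peg13 (-0.87). Within the Mesen-like cells their ratios were smaller in size, -0.31, -0.44 and -0.28 (interval -0.58 to 0.02). Snrpn had -0.34 (-0.89 to 0.27) in the SKM-like cells. Of the other abundant ones, Gnas had -0.23, Nnat -0.51, Kcnq1ot1 0.21 and Rian 0.46. In the SKM-like cells 1 of 27 was higher (Asb4) and 2 lower (Nnat, Mcts2), where 9.52% of all genes were higher and 2.57% lower. In the Mesen-like cells 7 of 33 were higher and 2 lower, where 2.89% of all genes were higher and 2.52% lower.

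Genes around Igf2 signalling were mostly within the limit, as were most of all genes. Over all kept cells, 5.66% of all genes were at least 1.5-fold higher and 13.2% at least 1.5-fold lower. Of 15 genes of the insulin-like growth factor axis, 14 had at least 200 UMIs over all kept cells, with 1 at least 1.5-fold higher, the receptor substrate Irs1 (11.5 and 22.9 CPM, 0.995), and 1 lower, the binding protein Igfbp7 (81.3 and 47.1 CPM, -0.79). The growth factor Igf1 had 102 and 125 CPM (0.29), its receptor Igf1r 95.3 and 110.1 CPM (0.21), and Igf2bp2, which encodes an RNA-binding protein of Igf2 mRNA, 85.2 and 105 CPM (0.30). Igfbp5, the most abundant binding protein gene, had 294 and 359 CPM (0.29), Igfbp4 234 and 195 CPM (-0.26) and Igfbp2 149.7 and 99.8 CPM (-0.58). Of 13 in the SKM-like cells, 3 were at least 1.5-fold higher, where 9.52% of all genes were, and 0 lower, where 2.57% were. These were Igfbp5 (0.84, interval 0.67 to 1.01), Insr (0.82, interval 0.03 to 1.74) and Igfbp7 (1.11, interval 0.11 to 2.34), where Insr and Igfbp7 had 7.19 and 4.43 CPM in the 112 cells of the library labelled f/w. Of 14 in the Mesen-like cells, Irs1 was higher (0.73) and Igfbp2 lower (-1.26) by at least 1.5-fold. Of all genes in these cells, 2.89% were higher and 2.52% lower by as much. Genes of both lists that are named for a class, other than by the rule over all kept cells, were named after their values were seen.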

How the data were processed

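Counts were deposited as whole numbers of UMIs per gene and barcode. The authors had sequenced 3′ 10x Genomics libraries, mapped reads to mm10 without introns, counted UMIs with Cell Ranger 5.0.0 (named in the file header, while the submitters' processing notes list Cell Ranger 3.1.0, STAR and Seurat 3.1.1), and merged the libraries with reads sampled down to a common depth. Barcode suffixes were paired with samples by the number of cells in the deposited summaries, and labels were taken from the sample titles.

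Cells more than 2 SD from their library's mean of log10 UMIs or log10 genes, or above 10% mitochondrial UMIs, were removed, which left 122938843 UMIs in the library labelled f/w and 151555303 in the library labelled f/f. No doublet caller was run. A cell was put into a class with at least 3 UMIs of at least 2 of its markers, and, where several classes passed, into the one with at least 2 times the marker UMIs of the next. Otherwise it was left out of the classes, as were 1622 cells of the library labelled f/w and 1682 of the library labelled f/f that passed for none. The markers were SKM-like, Pax7, Myf5, Myod1, Myog, Myh3, Cdh15, Chrna1 and Mymk; Mesen-like, Pdgfra, Dcn, Lum, Twist2, Dpt and Osr2; and similar lists of 6 genes for the others, of which Ahsp was not used here. UMIs were summed per class and library and divided by the UMIs of the same cells. Levels have exact Poisson intervals and ratios the exact interval of the split of the counts, at 95%. With 1 library per label no p-value was computed. A gene counts as higher or lower past 1.5-fold, and backgrounds hold genes with at least 200 UMIs in the cells compared. On counts simulated with Poisson error only, 95.4% of the intervals of 14478 genes over all cells held the true ratio. The simulation had no variation between cells or libraries, so beyond the calculation of the intervals it covers counting error only.

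The members, lists and limits were chosen with earlier results of these data known. Named are the members, Srsf2, the 3 genes most like each member by profile, and of both other lists the 3 highest, the 3 lowest and the 5 most abundant. Coordinates are those of GENCODE vM21, which holds 99.6% of the gene identifiers, and sequences those of RefSeq. Python 3.11.15, NumPy 2.4.6, SciPy 1.17.1, pandas 2.3.3 and matplotlib 3.10.9 were used. Protein sequences were not used here.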

Additional observations from a re-analysis of the deposited data

Results flagged for a closer look

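For 4 members the ratio of the library labelled f/f over the library labelled f/w had intervals on opposite sides of 0 in different classes. With 1 library per label the difference between classes was not tested. Igf2 had -0.41 (-0.56 to -0.26) in the Peri-like cells and 1.005 (0.81 to 1.20) in the Immu-like cells, a difference of 1.42 on the log2 scale. Dlk1 had -0.42 (-0.69 to -0.16) in the Epi-like and 1.17 (0.95 to 1.38) in the Immu-like cells, which differ by 1.59. For Meg3 the values were -0.29 (-0.41 to -0.18) and 0.79 (0.66 to 0.92) in the same classes, 1.08 apart, and for Mest -0.39 (-0.69 to -0.09) and 1.14 (0.87 to 1.41), 1.53 apart. The highest ratio of each lies in the Immu-like cells, where all 10 members were higher in the library labelled f/f (0.48 to 1.53) and where levels were at most 28.8% of those over all cells. Srsf2, not a member, was higher there too (0.71, interval 0.56 to 0.86). It was also higher in every other class, from 0.25 in the Epi-like to 2.35 in the Ery-like cells, with intervals above 0. The share of all genes that were higher in this class was not computed. The class has 619 cells in the library labelled f/w and 126 in the library labelled f/f.

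Among classes that hold more of these RNAs, values below 0 were those of the Chon-like cells, with -0.07 (-0.09 to -0.04) for Dlk1, of the Osteo-like cells, with -0.09 (-0.17 to -0.01) for Igf2, -0.16 for Meg3 and -0.34 for Mest, and of the Peri-like cells, with -0.19 (-0.28 to -0.10) for Meg3. The Peri-like class has 85 cells in the library labelled f/w and 132 in the library labelled f/f.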

How the results depend on the processing

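No paired analysis was possible because each label has 1 library. Over all kept cells the number of members past 1.5-fold, 2, was 0 with limits on the linear scale, with each cell at equal weight, at a fold limit of 2 and with equal class shares. Peg3 ranged from 0.53 to 0.62 and Plagl1 from 0.57 to 0.63 over the planned settings. In the Mesen-like cells the number fell from 2 to 0 relative to the median ratio and at a fold limit of 2. In the Endo-like cells it fell from 2 to 1 (Dlk1) with limits on the linear scale, each cell at equal weight, a fold limit of 2, the class with the most marker UMIs, or cells of 1 class only. In the Neu-like cells it rose from 0 to 1 with linear limits (H19), 5 marker UMIs (Plagl1) or cells of 1 class only (H19), and to 2 at 5% mitochondrial UMIs (H19 and Plagl1). In the SKM-like and Chon-like cells it was 0 in each setting. The share of all genes past the limit was not computed in these settings. The share of all genes past 1.5-fold over all cells, 18.8%, rose to 32.4% with 1 UMI in each library as the limit. Relative to the median ratio, Dlk1 and Grb10 in the Ery-like cells, with few UMIs, went from 0.77 and 0.75 to -0.18 and -0.20. Of the 30 genes most like a member, 22 were shared at a pseudocount of 1, where Mirg and Airn were lost, and 23 without the Ery-like cells, a setting added after the data were seen. The cause of these changes was not tested, and the number of SKM-like cells in the library labelled f/w, 112, limits the ratios there.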
